A study of Bos taurus with 6 samples.

Results

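The genes described here build and move the mitotic chromosomes. They are 39 genes chosen by name, covering cyclins and CDK1, mitotic kinases, the kinetochore, the spindle, the midzone and cytokinesis, condensin, and the proliferation genes FOXM1 and MKI67. They were matched by gene symbol in the deposited expression table and by Entrez identifier in the deposited counts, which hold 19163 genes. Of the 39 genes, 38 were matched and all 38 had enough counts to be tested. MAD2L1 was not analysed here. All libraries came from F7, a single line of bovine embryonic stem cells (Bos taurus, Holstein Friesian) derived from embryos made by in vitro fertilization. F7 was grown on mouse embryonic fibroblasts (MEFs) of C57 mice. In MC-F7 (called 1M-F7 in the sample titles) these feeder cells had been treated with mitomycin C, so that they lived but no longer divided, and in MT-F7 they had been fixed with methanol, which leaves a dead layer. Both groups received the same growth factor-poor medium with FGF and the Wnt inhibitor IWR1, were at 15 passages by the series description, and had 3 libraries each. The medium was renewed every day for MC-F7 and every other day for MT-F7, so the feeder and the feeding interval cannot be told apart. Before RNA was taken, the cells were left on gelatin so that feeder cells could attach and the floating cells were collected.

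Mitosis begins when cyclin B and CDK1 become active. Condensin and topoisomerase II compact the chromosomes, the kinetochore ties each centromere to spindle microtubules, and the checkpoint kinases hold back the anaphase-promoting complex until all kinetochores are attached. Separase then cuts cohesin, and the midzone proteins and anillin guide the cleavage of the cell. Most of these genes are transcribed in the later part of the cell cycle under the MuvB complex with B-MYB and FOXM1, so their RNA is widely read as a mark of dividing cells. Pluripotent stem cells cycle quickly and carry much of this RNA. In bulk RNA, fewer dividing cells and less RNA per dividing cell cannot be told apart. The authors measured growth with a cell count kit and reported comparable rates for MC-F7 and MT-F7.

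Library depth ran from 21958386 to 24933430 counts, of which genes of the mitochondrial genome took 16.3% to 28.3%. Replicate 3 had the highest such share in each group. The pluripotency gene POU5F1 (OCT4) was detected in all 6 libraries, from 486 to 1456 CPM (counts scaled to 1000000 per library). Its RNA fell in MT-F7 (log2 fold change -1.19, adjusted p = 0.00119). The highest MT-F7 library, at 557 CPM, was below the lowest MC-F7 library, at 825 CPM. Of the 10 markers listed for pluripotent cells, 7 were tested and 6 fell in MT-F7 (adjusted p under 0.05). The summed level of the 7 tested markers was 1048 to 1744 CPM in MC-F7 and 629 to 700.0 CPM in MT-F7, most of it from POU5F1. The largest falls were in DPPA4 (log2 fold change -3.22, adjusted p = 2.79e-04), TDGF1 (-2.65, adjusted p = 1.12e-05) and NANOG (-2.02, adjusted p = 1.14e-05). DPPA4 was at most 1.87 CPM. SALL4 did not pass (log2 fold change 0.33, adjusted p = 0.286). The 15 listed fibroblast markers summed to 336 to 402 CPM in MC-F7 and 513 to 553 CPM in MT-F7, and of the 14 tested, 5 were higher and 1 was lower in MT-F7. The collagen gene COL1A1 was at 169.8 to 286 CPM and did not pass (log2 fold change 0.39, adjusted p = 0.0942). COL5A1, at 69.6 to 186 CPM, rose (log2 fold change 0.79, adjusted p = 0.0102). COL3A1 rose from 14.6 ± 1.99 CPM to 45.8 ± 10.3 CPM (log2 fold change 1.65, adjusted p = 8.06e-05). POSTN rose as well (log2 fold change 1.24, adjusted p = 0.0133). The marker that was lower was TWIST2 (log2 fold change -2.15, adjusted p = 0.0111), at most 2.17 CPM. THY1 and PDGFRA were at most 4.97 and 1.53 CPM, and FAP was at 0 in 4 of the 6 libraries. The feeder cells were of mouse, while the counts are of reads mapped to the cattle genome, so these markers do not directly measure feeder RNA. The authors reported a larger share of reads mapped to cattle in MT-F7 than in MC-F7, and proposed less feeder contamination with fixed feeders. Feeder RNA in these counts was not tested. The part of these marker changes in the values below was not tested. The sources do not say that the libraries were grown separately, so errors and p-values may cover technical variation only. CPM are given after scaling of library sizes by the TMM method, and errors are SD over 3 libraries.

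Of the 38 mitosis genes, 3 rose in MT-F7, and for 36 the 95% interval of the difference stayed within 2-fold. At an adjusted p under 0.05 in edgeR's quasi-likelihood test, FOXM1, ANLN and CENPF were higher in MT-F7 and 0 members were lower, which is 7.89% of the 38 genes. Over all 13001 tested genes 23.2% passed, 11.9% higher and 11.3% lower. At an unadjusted p under 0.05 there were 8 members (21.1%), against 35.8% of all tested genes. The median log2 fold change of the members was -0.037, with 17 genes above 0 and 21 below, against -0.0026 over all tested genes. A change or log2 fold change above 0 stands for more RNA in MT-F7 throughout, and SE is its standard error. Without its sign, the median change was 0.16 for the members and 0.34 for all tested genes, on the log2 scale.

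**Figure D1:**
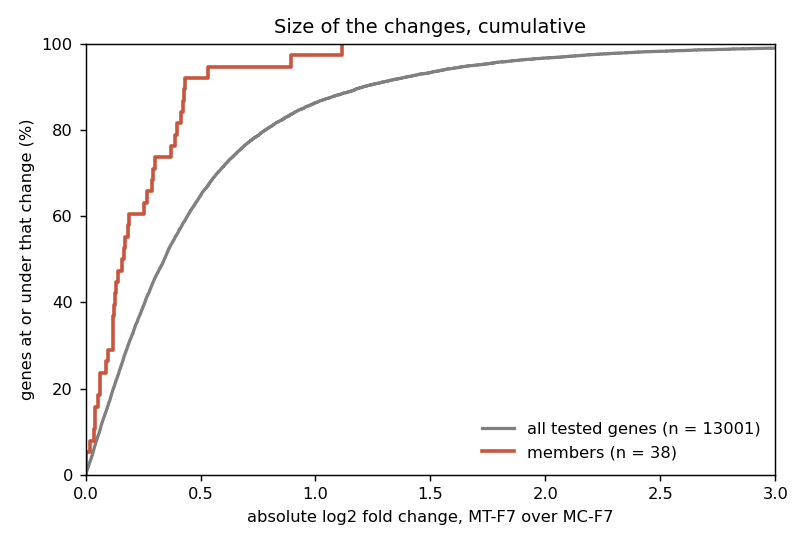
Share of genes (percent, y axis) whose absolute log2 fold change between MT-F7 and MC-F7 is at or under the value on the x axis, for the 38 members and for the 13001 tested genes. The curve of the members lies to the left, with a median of 0.16 against 0.34; the x axis ends at 3.

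The members outside that 2-fold range were FOXM1 and ANLN. The interval lay within 1.5-fold in either direction for 21 members (55.3%) and within 2-fold for 94.7%. Over all tested genes these shares were 24.9% and 61.6%. In the list of 30 DNA replication genes described below they were 60% and 96.7%, and the median change without its sign was 0.17. In the further list of 106 mitosis genes they were 45.3% and 86.8%, with a median of 0.22. The members were also more highly expressed than most genes, with a median of 106 CPM against 16.8 CPM, and the part of this in their narrow intervals was not tested. In 10 members (26.3%) the 3 libraries of one group all lay above those of the other, a share that was 40.0% over all tested genes. These were FOXM1, ANLN, CENPF, NCAPG, ASPM and AURKB, with MT-F7 above, and PLK1, CDK1, BUB1 and BUB1B, with MT-F7 below.

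**Figure D2:**
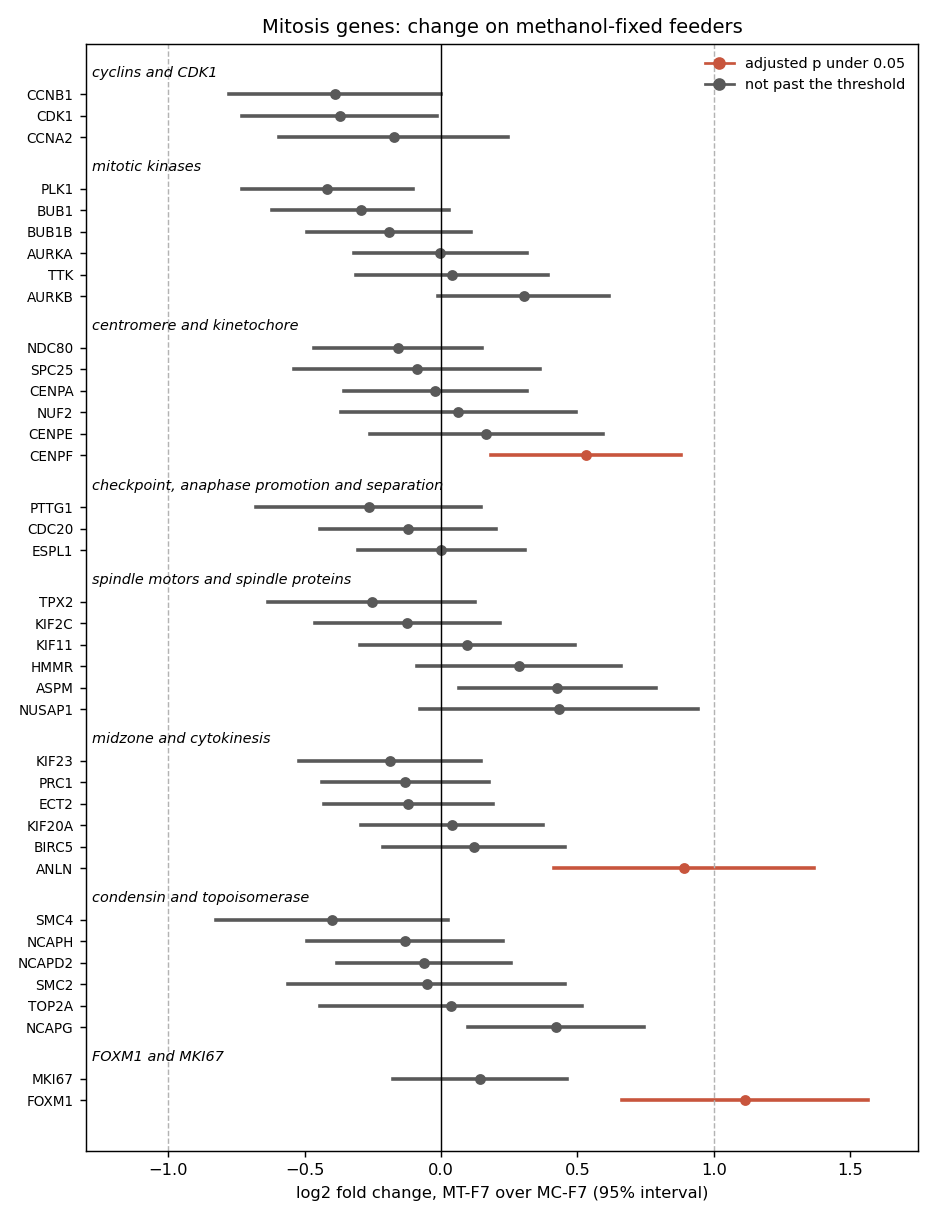
Log2 fold change of each member (x axis, MT-F7 over MC-F7) with its 95% interval, grouped by role; dashed lines mark 2-fold changes. FOXM1, ANLN and CENPF, in red, are the members with an adjusted p under 0.05, and the intervals of all others lie between the dashed lines.

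FOXM1 (Entrez gene 513643) encodes a forkhead transcription factor that drives mitotic gene expression, and it was the member that changed most. Its level was 19.5, 18.3 and 25.9 CPM in the MC-F7 libraries and 38.6, 39.2 and 60.1 CPM in the MT-F7 libraries. The lowest MT-F7 library was above the highest MC-F7 library, and replicate 3 was the highest of both groups. It rose from 21.2 ± 4.08 CPM to 46.0 ± 12.2 CPM, with a change of 1.11 on the log2 scale (SE 0.208, adjusted p = 0.00206). The change is 2.16-fold, with an interval of 0.66 to 1.56 on the log2 scale. The call for FOXM1 held in 6 of 6 fits that each dropped 1 library.

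Among the members known as targets of FOXM1, CENPF rose, while PLK1, CCNB1 and AURKB did not pass, with log2 fold changes of -0.42 (adjusted p = 0.0545), -0.39 (adjusted p = 0.138) and 0.30 (adjusted p = 0.155). CDC25B, a further target and a phosphatase that activates CDK1, was at 0.40 (adjusted p = 0.0687). These targets were picked after their values had been seen and are not a full set of the targets among the members. The values of the other members are given below. MKI67 (513220), whose protein coats mitotic chromosomes and is the Ki-67 antigen of pathology, was 282, 286 and 313 CPM in the MC-F7 libraries and 317, 299 and 356 CPM in the MT-F7 libraries. These ranges overlapped, with a change of 0.14 on the log2 scale (SE 0.147, adjusted p = 0.530) and an interval of -0.18 to 0.46.

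**Figure D3:**
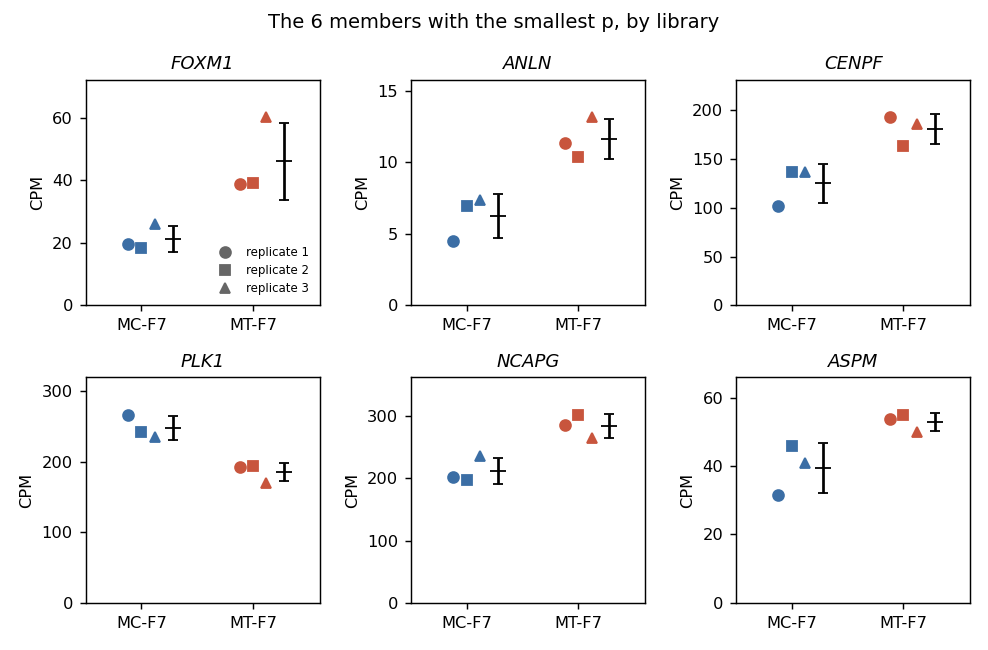
CPM of the 6 members with the smallest p in each library (symbols mark the replicate number, bars the mean and SD of 3 libraries, each y axis starts at 0). In all 6 genes the groups are apart, with MT-F7 above in FOXM1, ANLN, CENPF, NCAPG and ASPM and below in PLK1.

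In the group of midzone and cytokinesis genes, ANLN rose and the other 5 did not pass the test. ANLN (518274) encodes anillin, the scaffold of the contractile ring. Its level was 4.51, 6.92 and 7.39 CPM in the MC-F7 libraries and 11.4, 10.4 and 13.2 CPM in the MT-F7 libraries. All MT-F7 libraries were above all MC-F7 libraries, although the gene was low in both groups. It rose from 6.27 ± 1.54 CPM to 11.6 ± 1.40 CPM, with a change of 0.89 on the log2 scale (SE 0.220, adjusted p = 0.0107), and it passed in 6 of the 6 fits without 1 library. ECT2, the exchange factor that activates RhoA at the cell equator, had a change of -0.12 on the log2 scale (SE 0.143, adjusted p = 0.590). KIF20A and KIF23, the kinesins of the midzone, had log2 fold changes of 0.040 (adjusted p = 0.880) and -0.19 (adjusted p = 0.424). PRC1, which bundles midzone microtubules, was at -0.13 (adjusted p = 0.548), and BIRC5 (survivin), a subunit of the chromosomal passenger complex, at 0.12 (adjusted p = 0.613).

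In the kinetochore and centromere group, CENPF rose and the other 5 genes did not pass. CENPF (533089) encodes a large protein of the outer kinetochore. It was at 102, 136 and 136 CPM in the MC-F7 libraries and 193, 163 and 186 CPM in the MT-F7 libraries. The groups did not overlap, and MC-F7 replicate 1 was well below the other MC-F7 libraries. CENPF rose from 125 ± 19.6 CPM to 181 ± 15.5 CPM, with a change of 0.53 on the log2 scale (SE 0.161, adjusted p = 0.0302). It passed in 3 of the 6 fits that left out 1 library, and its adjusted p was 0.103 without MC-F7 replicate 1, 0.0738 without MC-F7 replicate 2 and 0.129 without MT-F7 replicate 1.

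CENPE, the kinesin that brings chromosomes to the metaphase plate, was at 36.1, 56.2 and 64.6 CPM in the MC-F7 libraries and 63.9, 57.0 and 55.3 CPM in the MT-F7 libraries. It varied most within MC-F7, where replicate 1 was the lowest library, and its log2 fold change was 0.17 (adjusted p = 0.588). CENPA, the histone H3 variant of centromeres, was at 191, 165 and 168 CPM in the MC-F7 libraries and 173, 195 and 149 CPM in the MT-F7 libraries, with overlapping groups and a log2 fold change of -0.021 (adjusted p = 0.936). The 3 members of the Ndc80 complex, which binds microtubules, were NDC80 at -0.16 (adjusted p = 0.468), NUF2 at 0.064 (adjusted p = 0.850) and SPC25 at -0.089 (adjusted p = 0.799). SPC25 was the lowest of the 3 by CPM, from 12.4 to 20.7 CPM over the 6 libraries.

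The cyclins and CDK1 had log2 fold changes below 0, and none of the 3 passed the test. CCNB1 (cyclin B1, 327679) was at 147, 133 and 102 CPM in the MC-F7 libraries and 105, 107 and 78.9 CPM in the MT-F7 libraries. MT-F7 replicates 1 and 2 lay just above MC-F7 replicate 3, so the groups overlapped. It had a change of -0.39 on the log2 scale (SE 0.179, adjusted p = 0.138). CDK1 (281061), the kinase that cyclin B1 activates, was at 33.1, 33.7 and 25.8 CPM in the MC-F7 libraries and 24.4, 25.6 and 21.5 CPM in the MT-F7 libraries. Its highest MT-F7 library was just under its lowest MC-F7 library, with a change of -0.37 on the log2 scale (SE 0.166, adjusted p = 0.126). The intervals were -0.78 to -0.0016 for CCNB1 and -0.73 to -0.013 for CDK1. Both passed when MC-F7 replicate 3 was left out (adjusted p = 0.0402 and 0.0463). CCNA2 (cyclin A2) was at 107, 103 and 85.8 CPM in the MC-F7 libraries and 96.4, 104 and 61.9 CPM in the MT-F7 libraries, with overlapping groups and a change of -0.17 on the log2 scale (SE 0.194, adjusted p = 0.563).

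None of the 6 mitotic kinases passed, and their log2 fold changes lay on both sides of 0. PLK1 (538238), the Polo-like kinase of spindle assembly and mitotic entry, came closest. It was at 266, 242 and 234 CPM in the MC-F7 libraries and 192, 193 and 169.8 CPM in the MT-F7 libraries. The highest MT-F7 library was below the lowest MC-F7 library. It went from 247 ± 16.6 CPM to 185 ± 13.3 CPM, with a change of -0.42 on the log2 scale (SE 0.145, adjusted p = 0.0545) and an interval of -0.73 to -0.10. Without MC-F7 replicate 3 its adjusted p was 0.0471.

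AURKB, the kinase of the passenger complex, was at 120.3, 103 and 98.5 CPM in the MC-F7 libraries and 126, 138 and 134 CPM in the MT-F7 libraries, and here the MT-F7 libraries were the higher ones, with a change of 0.30 on the log2 scale (SE 0.145, adjusted p = 0.155). AURKA, its relative at the spindle poles, was nearly level, at 53.8 ± 1.90 CPM in MC-F7 and 53.7 ± 5.45 CPM in MT-F7, with an interval of -0.32 to 0.31 on the log2 scale. The spindle checkpoint kinases were BUB1 at -0.29 (adjusted p = 0.178), BUB1B (BubR1) at -0.19 (adjusted p = 0.356) and TTK (Mps1) at 0.041 (adjusted p = 0.885). BUB1 and BUB1B had no overlap between the groups, with MT-F7 below, whereas the TTK libraries overlapped.

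Of the genes that time anaphase, CDC20, PTTG1 and ESPL1 were tested and none passed. CDC20 activates the anaphase-promoting complex, and it was at 208, 184 and 161 CPM in the MC-F7 libraries and 164, 171 and 173 CPM in the MT-F7 libraries, with a change of -0.12 on the log2 scale (SE 0.149, adjusted p = 0.601). PTTG1 (securin), the inhibitor of separase, varied widely inside each group, at 212, 179 and 141 CPM in the MC-F7 libraries and 146, 177 and 119 CPM in the MT-F7 libraries. Its log2 fold change was -0.27 (adjusted p = 0.348), with an interval of -0.68 to 0.15. ESPL1 (separase) was among the steadiest members, at 57.2, 64.6 and 65.0 CPM in the MC-F7 libraries and 60.4, 61.3 and 65.3 CPM in the MT-F7 libraries. Its interval was -0.30 to 0.31 on the log2 scale.

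None of the 6 spindle genes passed, although 4 of them were above 0. ASPM (534849), a protein of the spindle poles, was at 31.4, 45.9 and 40.7 CPM in the MC-F7 libraries and 53.7, 54.9 and 50.0 CPM in the MT-F7 libraries. All MT-F7 libraries were above all MC-F7 libraries, with a change of 0.43 on the log2 scale (SE 0.166, adjusted p = 0.0829) and an interval of 0.067 to 0.79. NUSAP1, which links microtubules to chromatin, was at 139, 109 and 77.3 CPM in the MC-F7 libraries and 164, 175 and 101 CPM in the MT-F7 libraries. Replicate 3 was the lowest library of both groups, the groups overlapped, and the gene had a change of 0.43 on the log2 scale (SE 0.235, adjusted p = 0.209). HMMR, a partner of the spindle assembly factor TPX2, was at 115, 101 and 101 CPM in the MC-F7 libraries and 132, 155 and 100.2 CPM in the MT-F7 libraries, with a log2 fold change of 0.29 (adjusted p = 0.258). Without MT-F7 replicate 3, NUSAP1 and HMMR passed (adjusted p = 0.0386 and 0.0458). TPX2, which activates AURKA on the spindle, was at -0.25 (adjusted p = 0.328). The kinesin KIF11 (Eg5), which pushes the spindle poles apart, was at 0.10 (adjusted p = 0.748), and KIF2C, which takes microtubule ends apart, at -0.12 (adjusted p = 0.614).

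None of the 6 genes of condensin and topoisomerase IIα passed. NCAPG (531234), a HEAT-repeat subunit of condensin I, had the highest fold change of them. It was at 202, 197 and 237 CPM in the MC-F7 libraries and 286, 302 and 264 CPM in the MT-F7 libraries. The groups did not overlap, and it went from 212 ± 21.5 CPM to 284 ± 18.9 CPM, with a change of 0.42 on the log2 scale (SE 0.149, adjusted p = 0.0580). It passed without MC-F7 replicate 3 (adjusted p = 0.0336) and without MT-F7 replicate 3 (adjusted p = 0.0421). The other subunits of the same complex had log2 fold changes of -0.062 (adjusted p = 0.801) for NCAPD2, -0.13 (adjusted p = 0.614) for the kleisin NCAPH, and -0.053 (adjusted p = 0.896) and -0.40 (adjusted p = 0.166) for the ATPases SMC2 and SMC4. Their differences from NCAPG were not tested.

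SMC4 was at 197, 268 and 356 CPM in the MC-F7 libraries and 216, 195 and 212 CPM in the MT-F7 libraries. MC-F7 replicates 2 and 3 were above all MT-F7 libraries and replicate 1 lay among them, and without MC-F7 replicate 1 SMC4 passed as lower in MT-F7 (a log2 fold change of -0.59, adjusted p = 0.0318). TOP2A, which untangles sister chromatids, was the member with the most counts, at 683, 621 and 465 CPM in the MC-F7 libraries and 689, 715 and 409 CPM in the MT-F7 libraries. Replicate 3 was again the lowest in both groups, and the groups overlapped, with a change of 0.035 on the log2 scale (SE 0.222, adjusted p = 0.927) and an interval of -0.44 to 0.52.

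Levels of different genes were compared per length, in the deposited TPM values after each library was scaled to a sum of 1000000. PTTG1 was the highest member, at 220.4 ± 46.9 in MC-F7 and 195 ± 47.0 in MT-F7. TOP2A came next, with 142 ± 29.8 in MC-F7 and 155 ± 49.0 in MT-F7, less than 1 SD from PTTG1 in MT-F7. In MC-F7 the order went on with PLK1, KIF20A, CCNB1 and CDC20, and in MT-F7 with KIF20A, NCAPG, PLK1 and CDC20. In MT-F7 the means of NCAPG, PLK1 and CDC20 were 104, 104 and 98.7, within the SD of PLK1 (11.9) of each other, so these neighbours did not differ beyond their spread. NCAPG moved from rank 10 in MC-F7 to rank 4 in MT-F7, FOXM1 from rank 35 to 30, and NUSAP1 from rank 18 to 12. ANLN was the lowest member in both groups, at 2.49 ± 0.618 in MC-F7 and 4.87 ± 0.358 in MT-F7, and so its rise left its rank as it was. The gene lengths behind these values are not given in the sources used here.

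**Figure D4:**
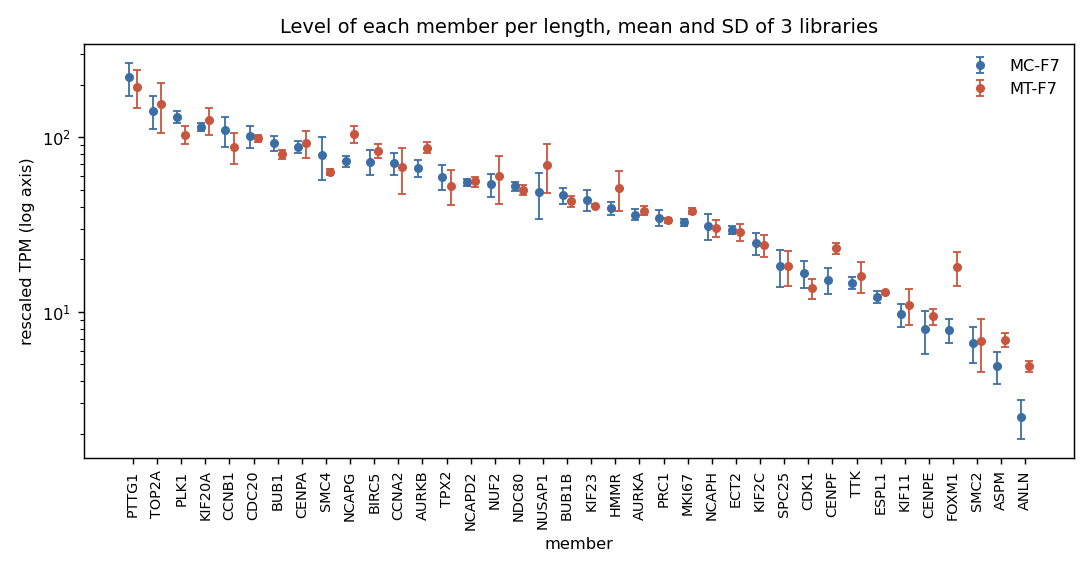
Mean rescaled TPM of each member (log axis, error bars are SD of 3 libraries) in MC-F7 and MT-F7, ordered by the MC-F7 mean. PTTG1 is highest and ANLN lowest in both groups, and FOXM1, CENPF and ANLN stand above their MC-F7 values in MT-F7.

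Partners in one complex were set side by side as ratios of these levels per length within each library. Securin RNA exceeded separase RNA in all libraries, with a PTTG1 to ESPL1 ratio of 23.4, 17.5 and 13.7 in the MC-F7 libraries and 15.3, 18.3 and 11.5 in the MT-F7 libraries. The ratio of CCNB1 to CDK1 was steadier, at 6.54 ± 0.445 in MC-F7 and 6.45 ± 0.544 in MT-F7. NUF2 and NDC80, which pair one to one in their complex, had ratios of 1.11, 1.18 and 0.793 in the MC-F7 libraries and 1.34, 1.37 and 0.840 in the MT-F7 libraries, lowest in replicate 3 of both groups. In condensin, SMC4 RNA exceeded SMC2 RNA although the proteins pair with each other, with ratios of 11.2, 9.95 and 14.8 in the MC-F7 libraries and 7.72, 8.28 and 14.4 in the MT-F7 libraries. The NCAPG to NCAPH ratio was 2.71, 2.23 and 2.20 in the MC-F7 libraries and 3.16, 3.79 and 3.43 in the MT-F7 libraries, and every MT-F7 value was above every MC-F7 value. With 3 libraries a group, the smallest two-sided p of an exact permutation test is 0.1, so these ratios are given without a test.

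Part of the variation inside the groups followed a shared pattern, in which replicate 3 was the lowest or the highest library of both groups. This held for some members and also for many of all tested genes. Other members varied through another library, as CENPE did through MC-F7 replicate 1. In 15 of the 38 members (39.5%) replicate 3 was the lowest library of MC-F7 and also of MT-F7, against 25.8% of all tested genes. These were CCNA2, CCNB1, CDK1, PLK1, BUB1B, TTK, NUF2, SPC25, PTTG1, KIF11, NUSAP1, TPX2, HMMR, BIRC5 and TOP2A. Relative to the mean of replicates 1 and 2, the level in replicate 3 was 0.621 times in MC-F7 and 0.598 times in MT-F7 for NUSAP1, and 0.713 times in MC-F7 and 0.582 times in MT-F7 for TOP2A. For CCNB1 it was 0.728 times in MC-F7 and 0.743 times in MT-F7.

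In 6 members (15.8%, against 24.7% of all tested genes) replicate 3 was the highest library of both groups, namely FOXM1, ANLN, MKI67, KIF23, NCAPD2 and ESPL1. For FOXM1 the level in replicate 3 relative to that mean was 1.37 times in MC-F7 and 1.54 times in MT-F7. Mitochondrial genome genes also took their highest share in this replicate, 28.3% in MC-F7 and 27.9% in MT-F7, and its part in this pattern was not tested. With replicate 3 left out of both groups, an alternative chosen after the data had been seen, 10 members passed, 7 higher (FOXM1, ANLN, CENPF, NCAPG, ASPM, NUSAP1 and HMMR) and 3 lower (PLK1, CCNB1 and CDK1). This is 26.3% of the members, and of all genes 32.4% passed in that fit. The median log2 fold change of the members was then 0.032.

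The members' summed level did not separate the groups. It was 4994, 4891 and 4791 CPM in the MC-F7 libraries and 5006, 5142 and 4408 CPM in the MT-F7 libraries, so MT-F7 held both the highest and the lowest value. Of all counts outside the mitochondrial genome, the members took 0.621% ± 0.0334 in MC-F7 and 0.633% ± 0.0350 in MT-F7.

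**Figure D5:**
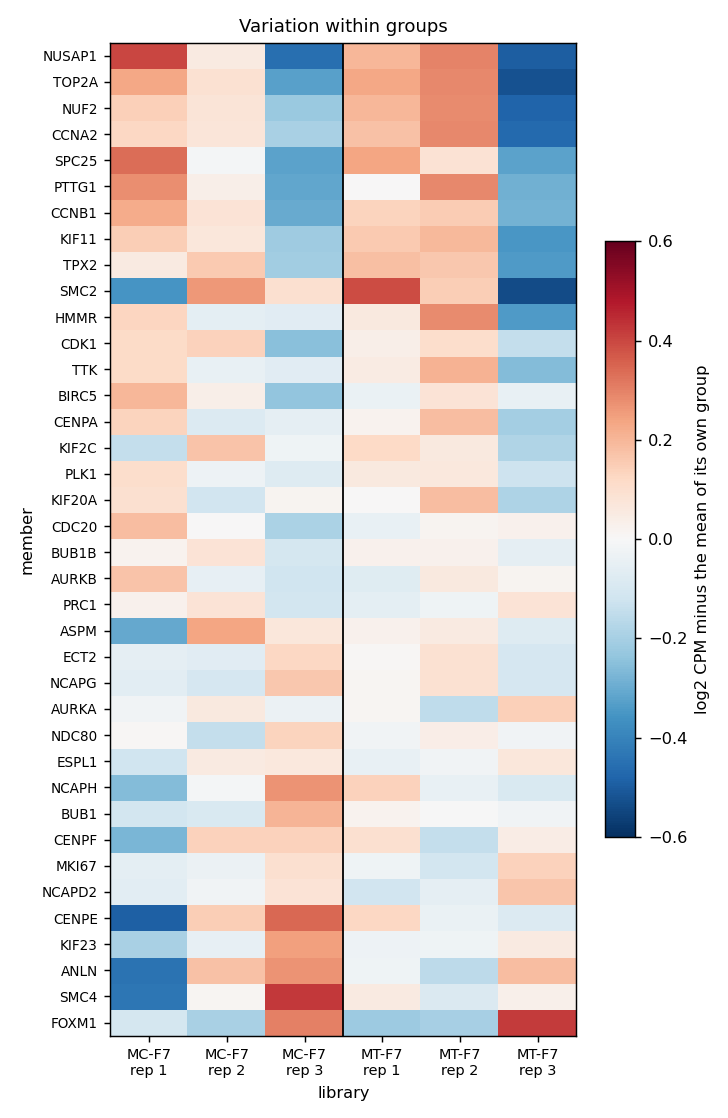
Log2 CPM of each member (rows) in each library (columns) minus the mean of its own group (red above, blue below), ordered by replicate 3. Genes at the top, such as NUSAP1 and TOP2A, are low in replicate 3 of both groups, and FOXM1 at the bottom is high in it.

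A further list of 106 mitosis genes, all tested, held 17 genes that passed (16.0%), 8 higher and 9 lower in MT-F7, with a median log2 fold change of 0.047. Of 15 genes of mitotic entry, ENSA, an inhibitor of the phosphatase PP2A, rose (log2 fold change 0.76, adjusted p = 0.0149) and the phosphatase gene CDC25A fell (log2 fold change -0.50, adjusted p = 0.0297). CCNB2, the other mitotic cyclin B, was at 0.077 (adjusted p = 0.775). Of 33 further checkpoint and kinetochore genes only CENPC, which binds centromeric chromatin, passed, and it fell (log2 fold change -0.53, adjusted p = 0.0238).

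The passenger complex and cohesin protection list had 5 genes. SGO2, a guardian of centromeric cohesin, fell (log2 fold change -0.53, adjusted p = 0.0490), as did HASPIN, the kinase that recruits the passenger complex (log2 fold change -0.67, adjusted p = 0.0127). INCENP and CDCA8, the subunits that join AURKB and BIRC5, had -0.17 (adjusted p = 0.446) and 0.24 (adjusted p = 0.314). Of 20 further spindle and cytokinesis genes, 4 rose and 1 fell. CIT, the citron kinase of the midbody, rose from 42.5 ± 13.7 CPM to 85.5 ± 20.2 CPM, with a change of 1.01 on the log2 scale (SE 0.233, adjusted p = 0.00731), and it passed in 6 of the 6 fits without 1 library. KIF4A, a chromosome-bound kinesin, and SPAG5, a kinetochore and spindle protein, rose as well (log2 fold change 0.50, adjusted p = 0.0255, and log2 fold change 0.46, adjusted p = 0.0347). NUMA1, which anchors the spindle poles, rose (log2 fold change 0.54, adjusted p = 0.0313), and CKAP2L, a spindle protein, fell (log2 fold change -0.66, adjusted p = 0.0267).

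Of 15 further condensin and cohesin genes, STAG1, a cohesin subunit, rose (log2 fold change 1.04, adjusted p = 0.0230), as did NCAPG2, the condensin II relative of NCAPG (log2 fold change 0.65, adjusted p = 0.00634), and the cohesin acetyltransferase gene ESCO1 fell (log2 fold change -1.02, adjusted p = 0.0480). STAG1 and ESCO1 were low, at most 7.35 and 7.01 CPM. NCAPG2 was at 38.4, 38.7 and 45.2 CPM in the MC-F7 libraries and 62.0, 62.4 and 67.6 CPM in the MT-F7 libraries, with no overlap. Of 18 genes of the anaphase-promoting complex and its partners, 1 rose and 3 fell. ANAPC11, the RING subunit, fell from 25.8 ± 12.2 CPM to 9.82 ± 2.24 CPM, with a change of -1.39 on the log2 scale (SE 0.315, adjusted p = 0.00651). In MC-F7 it was at 36.3, 28.7 and 12.5 CPM, and replicate 3 lay just above the highest MT-F7 library, at 12.4 CPM. UBE2S, the enzyme that extends ubiquitin chains on its targets, fell from 1179 ± 171 CPM to 716 ± 38.3 CPM, with a change of -0.72 on the log2 scale (SE 0.166, adjusted p = 0.00732), and both passed in all 6 fits without 1 library. ANAPC1, the largest subunit, fell (log2 fold change -0.51, adjusted p = 0.0179), and ANAPC15 rose (log2 fold change 0.52, adjusted p = 0.0352).

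Among 18 regulators of mitotic gene transcription, 17 were tested, 2 rose and 2 fell. CDKN1A (p21), an inhibitor of cyclin-dependent kinases, was at 11.5, 12.5 and 10.4 CPM in the MC-F7 libraries and 25.5, 23.2 and 26.0 CPM in the MT-F7 libraries. All MT-F7 libraries lay above all MC-F7 libraries, with a change of 1.12 on the log2 scale (SE 0.162, adjusted p = 3.23e-04). Of the MuvB subunits, LIN52 rose (log2 fold change 0.58, adjusted p = 0.0417) and LIN37 fell (log2 fold change -0.56, adjusted p = 0.0272). TFDP2, an E2F partner, fell (log2 fold change -0.51, adjusted p = 0.0387). MYBL2 (B-MYB), which activates mitotic genes together with MuvB, was high in both groups and at -0.070 (adjusted p = 0.789).

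A list of 30 DNA replication genes held 3 genes that passed (10%) and a median log2 fold change of -0.022. CCNE2, a cyclin of S phase entry, rose (log2 fold change 0.76, adjusted p = 0.0103), and ORC1 and GINS2, of the origin and the helicase, fell (log2 fold change -0.53, adjusted p = 0.0289, and log2 fold change -0.49, adjusted p = 0.0279). Whether any of these lists differed from the members or from all genes was not tested. The number of calls changed when single libraries were left out. Of the 106 further mitosis genes, 5 passed without MC-F7 replicate 2 or without MT-F7 replicate 1, 6 without MT-F7 replicate 2, 11 without MC-F7 replicate 1, 16 without MC-F7 replicate 3 and 19 without MT-F7 replicate 3. Over all genes the share that passed also fell, from 23.2% to 14.5% without MC-F7 replicate 2, 16.3% without MT-F7 replicate 1, 16.9% without MT-F7 replicate 2 and 20.2% without MC-F7 replicate 1. It was 23.4% without MC-F7 replicate 3 and 23.3% without MT-F7 replicate 3. HASPIN, CIT, ANAPC11, UBE2S and CDKN1A passed in all 6 of these fits, NCAPG2 and CCNE2 in 5, ENSA in 4, ANAPC1 in 3, and CDC25A, CENPC, SPAG5, STAG1, ANAPC15, LIN37 and GINS2 in 2. SGO2, KIF4A, CKAP2L, NUMA1, ESCO1, LIN52, TFDP2 and ORC1 passed in 1.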

How the data were processed

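Paired-end reads were filtered by the authors, mapped with HISAT2 2.0.5 to a Bos taurus genome from Ensembl and counted per gene by featureCounts 1.5.0-p3. The build and the strand setting are not given in the sources used here. They deposited raw counts per Entrez gene (3 MC-F7 and 3 MT-F7 libraries) and a table that they call TPM, whose columns sum to 154763 to 164394. Dividing these values by the counts gave a constant per gene, within 1% between libraries, for 9695 of 9711 genes with at least 50 counts in each, so the deposited TPM values still hold library size and were rescaled to 1000000 per library. Symbols came from RefSeq (ARS-UCD2.0, 19074 of 19163 genes). Depth is given with the results, and limits from counts cover counting error only.

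The filterByExpr function (min.count 10, min.total.count 15) chose the genes, which were normalized by TMM and compared by the two-sided quasi-likelihood test of edgeR 4.0.16 under R 4.3.3, with Benjamini-Hochberg adjustment over 13001 genes. Intervals are 95% intervals from the same fit. Alternatives used DESeq2 1.42.0 and limma 3.58.1, with pseudocounts of 1 and 0.1. Summaries were made with Python 3.11.15, pandas 2.3.3 and scipy 1.17.1. In counts simulated with these library sizes (19163 genes, 200 changed), the test recovered 79.0% of genes changed by 1 on the log2 scale. It recovered all genes changed by 2, and 4.28% of calls were unchanged genes. The simulation used a single dispersion for all genes, changed only genes above a minimum mean count and held no shared replicate pattern. It also changed a smaller share of genes than passed in the data, so these rates may not hold for the real libraries.

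The members and lists were chosen with earlier results of these data known. All members are named. Those that passed, and the 6 with the smallest p, have values per library. Of each other list the 3 called genes with the largest changes are named, or all where 5 or fewer passed. Other names were added after their values were seen. Same-numbered libraries are not stated to be paired. Sequences were not used here.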

Additional observations from a re-analysis of the deposited data

How the results depend on the processing

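FOXM1 and ANLN passed as higher in MT-F7 under all 17 alternatives, and CENPF under 14 of them. The number of members called higher was 3 or 4 under the settings that kept every library, other than 6 with a replicate block. It was 7 without replicate 3 in both groups, and it ran from 2 to 6 when single libraries were left out. The number called lower was 1 in DESeq2 (PLK1), 3 with the block, 3 without replicate 3 in both groups, and 0 to 3 when single libraries were left out. With limma on rescaled TPM and a pseudocount of 1, NCAPG also passed. The count over all genes was 4674 with the block (36.0%) and ran from 1914 to 3093 without single libraries, lowest without MC-F7 replicate 2. The 9 members that passed with the block were FOXM1, ANLN, CENPF, NCAPG, ASPM and NUSAP1, higher, and PLK1, CCNB1 and CDK1, lower. The deviations of same-numbered libraries from their group means correlated across genes at 0.134, 0.0445 and 0.417 for replicates 1, 2 and 3. Replicate 3 of each group correlated best with replicate 3 of the other. MC-F7 replicate 1 correlated best with MT-F7 replicate 2 (0.279), and MC-F7 replicate 2 with MT-F7 replicate 1 (0.142). Whether same-numbered libraries share a culture or batch is not stated and was not tested.

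The members' median log2 fold change ran from -0.10 to 0.034, on both sides of 0, and each of these values was less than 0.0949 (the SD of the library medians) from the reported -0.037. Members and other named genes (CCNB2, PLK3, PLK4 and MYBL2) that did not pass and lay close to 0 changed sign under some settings. When single libraries were left out, the log2 fold changes ran from -0.084 to 0.073 for AURKA, -0.32 to 0.018 for CCNA2, -0.034 to 0.21 for CCNB2, -0.12 to 0.068 for CENPA, -0.040 to 0.34 for CENPE, -0.055 to 0.029 for ESPL1, -0.0075 to 0.24 for KIF11, -0.054 to 0.12 for KIF20A, -0.25 to 0.0086 for NCAPH, -0.074 to 0.26 for NUF2, -0.12 to 0.23 for PLK3, -0.028 to 0.28 for PLK4, -0.27 to 0.16 for SMC2, -0.24 to 0.10 for SPC25, -0.11 to 0.25 for TOP2A and -0.065 to 0.15 for TTK. AURKA was at 0.0012 in DESeq2, 0.0023 with all genes of at least 1 count, 0.00072 with at least 10 counts in every library and 0.0082 with library sizes alone, an alternative chosen after the data had been seen. Without replicate 3 in both groups, CENPA was at 0.064, ECT2 was at 0.010, NCAPH was at 0.076 and SMC2 was at 0.22. In the limma fits on rescaled TPM the values were 0.072 and 0.074 for AURKA, 0.053 and 0.054 for CENPA, 0.010 for MYBL2, 0.015 for NCAPD2, 0.0044 and 2.1e-05 for SMC2. The cause of these changes was not tested. In the simulated counts, recovery was measured for changes of 1 and 2 on the log2 scale and not for smaller ones.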

Other observations

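Close paralogues of the members were picked after the results above had been seen. PLK2, a Polo-like kinase of stress responses and centriole duplication, was at 10.6, 12.7 and 17.2 CPM in the MC-F7 libraries and 32.5, 33.7 and 40.8 CPM in the MT-F7 libraries, with no overlap. It rose from 13.5 ± 3.36 CPM to 35.7 ± 4.50 CPM, with a change of 1.40 on the log2 scale (SE 0.197, adjusted p = 2.60e-04). The call held in each of the 6 fits without 1 library. PLK1 was at -0.42. PLK3 and PLK4, the latter the master kinase of centriole duplication, had 0.12 (adjusted p = 0.722) and 0.14 (adjusted p = 0.623). The differences between paralogues were not tested.

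TOP2B, which encodes topoisomerase IIβ, was at 171, 149.7 and 163 CPM in the MC-F7 libraries and 222, 237 and 196 CPM in the MT-F7 libraries, with a change of 0.44 on the log2 scale (SE 0.147, adjusted p = 0.0493). Of those 6 fits, 1 kept the call. TOP2A was at 0.035. AURKC and CCNB3, best known from germ cells, were detected in all libraries, at 16.5 ± 1.95 and 27.7 ± 3.16 CPM in MC-F7 and 14.0 ± 1.82 and 22.5 ± 0.688 CPM in MT-F7 (adjusted p = 0.358 and 0.188). CCNA1, the cyclin A of germ cells, was low but above the floor of 3 counts in every library, at 0.697 ± 0.177 and 1.09 ± 0.294 CPM, while CCNA2 was at 98.7 ± 11.4 and 87.5 ± 22.6 CPM. KIF20B and KIF2A had log2 fold changes of 0.19 (adjusted p = 0.432) and 0.41 (adjusted p = 0.120), and MAD2L2 of 0.35 (adjusted p = 0.0999).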
